A study of Homo sapiens with 4 samples.

Results

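Chromosome 19 carries the densest collection of zinc-finger genes in the human genome, and their reads were followed here in slow-cycling and unselected breast cancer cells. The genes were taken as the protein-coding genes of chromosome 19 whose symbol is ZNF followed by a number and whose mean over the 4 libraries was at least 1 CPM (the share of a library's counted reads, scaled to a fixed total). This gave 167 of 249 such genes, among 14585 genes that passed the same filter and 58735 in the count table. They were grouped by gene start into windows of the chromosome, and 14 of them start between 19 and 25 Mb. That window was singled out because its members were lowest against Bulk in the slow-cycling libraries, so its values against Bulk are a description and support nothing further.

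All cells were MDA-MB-231, an established triple-negative breast cancer line, transduced with a doxycycline-inducible histone H2B-eGFP reporter (TetOn-H2BeGFP). Every group received doxycycline at 5 μg/ml for 3 days, was stained with the dyes Claret and Violet, and was then grown for a chase of 12 days. Slow-cycling cells were the 1% that kept most Claret (Claret library), most H2B-eGFP (eGFP library) or most Violet (Violet library), and Bulk cells were sorted without a fluorescence gate. Each of the 4 groups holds 1 library, so no difference below has a replicate check, and no test compares conditions.

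Most zinc-finger proteins of this chromosome join an array of DNA-binding fingers to a KRAB domain, which recruits the corepressor TRIM28. TRIM28 in turn brings the histone methyltransferase SETDB1 and heterochromatin proteins, and many of these factors silence transposable elements. The genes arose by tandem duplication, so neighbours in a cluster resemble each other in sequence. The deposited table lists 161 of the 167 genes in its C2H2 zinc-finger transcription factor family.

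Promoters are shown first because the window from 19 to 25 Mb stood out by sequence as well as by position. RefSeq gives a start site for 153 of the 167 genes, and each promoter covers 250 bases before to 50 bases after it (GRCh38.p14). ZNF714, ZNF100 and ZNF675 are genes of the window with far fewer reads in the slow-cycling libraries than in Bulk. ZNF493 and ZNF91 are genes of the same window with more reads. ZNF850 and ZNF581 are a low and a high gene from other windows. Capitals mark CCAAT, the letters bound by the factor NF-Y, on either strand. The plus strand is read for ZNF714 (chr19:21081953-21082252), ZNF493 (chr19:21396883-21397182) and ZNF581 (chr19:55643399-55643698). The minus strand is read for ZNF100 (chr19:21767530-21767829), ZNF675 (chr19:23687163-23687462), ZNF91 (chr19:23395422-23395721) and ZNF850 (chr19:36772758-36773057).
ZNF714: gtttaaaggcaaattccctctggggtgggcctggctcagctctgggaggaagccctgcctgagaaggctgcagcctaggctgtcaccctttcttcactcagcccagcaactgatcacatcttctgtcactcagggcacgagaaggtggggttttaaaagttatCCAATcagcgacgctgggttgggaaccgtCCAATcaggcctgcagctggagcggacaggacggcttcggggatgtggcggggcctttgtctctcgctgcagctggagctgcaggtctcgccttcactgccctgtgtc
ZNF100: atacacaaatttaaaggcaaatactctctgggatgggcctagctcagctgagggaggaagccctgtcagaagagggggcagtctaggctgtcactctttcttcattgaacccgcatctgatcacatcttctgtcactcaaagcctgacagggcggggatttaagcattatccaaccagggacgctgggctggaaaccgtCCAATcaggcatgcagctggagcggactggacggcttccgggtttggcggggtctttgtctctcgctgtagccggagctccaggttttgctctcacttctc
ZNF675: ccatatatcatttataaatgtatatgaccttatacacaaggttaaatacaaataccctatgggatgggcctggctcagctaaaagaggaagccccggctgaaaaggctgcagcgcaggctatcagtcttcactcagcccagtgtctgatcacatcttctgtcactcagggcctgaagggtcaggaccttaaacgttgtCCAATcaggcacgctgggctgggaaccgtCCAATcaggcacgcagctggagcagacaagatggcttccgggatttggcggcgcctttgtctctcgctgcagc
ZNF493: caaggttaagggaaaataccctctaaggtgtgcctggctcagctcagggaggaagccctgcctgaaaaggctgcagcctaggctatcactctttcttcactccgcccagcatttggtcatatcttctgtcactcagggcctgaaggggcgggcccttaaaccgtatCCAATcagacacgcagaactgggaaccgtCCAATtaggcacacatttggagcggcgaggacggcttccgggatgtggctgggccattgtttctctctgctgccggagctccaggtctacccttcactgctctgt
ZNF91: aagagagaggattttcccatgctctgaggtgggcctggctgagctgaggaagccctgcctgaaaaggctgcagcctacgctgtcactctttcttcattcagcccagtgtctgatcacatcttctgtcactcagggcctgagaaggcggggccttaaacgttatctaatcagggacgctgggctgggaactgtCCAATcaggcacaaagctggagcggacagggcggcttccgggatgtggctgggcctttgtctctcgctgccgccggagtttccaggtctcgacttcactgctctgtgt
ZNF850: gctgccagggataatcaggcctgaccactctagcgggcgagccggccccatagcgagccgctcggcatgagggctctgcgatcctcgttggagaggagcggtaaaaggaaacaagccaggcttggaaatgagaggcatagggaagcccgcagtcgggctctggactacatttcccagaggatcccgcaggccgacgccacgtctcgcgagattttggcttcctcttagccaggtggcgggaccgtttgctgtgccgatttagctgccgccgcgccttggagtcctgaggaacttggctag
ZNF581: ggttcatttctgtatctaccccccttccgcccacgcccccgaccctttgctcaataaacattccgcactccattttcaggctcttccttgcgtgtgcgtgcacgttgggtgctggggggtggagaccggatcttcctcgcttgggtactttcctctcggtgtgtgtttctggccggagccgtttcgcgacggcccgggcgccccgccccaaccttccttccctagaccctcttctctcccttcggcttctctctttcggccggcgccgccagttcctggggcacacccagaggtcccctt

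The window's promoters were alike. Median identity over the 78 pairs of its 13 matched promoters was 66.8%, whereas the medians within the other windows with 2 or more genes lay between 50.5% and 55.6%. ZNF431 and ZNF714, which are neighbours, had the most similar pair in the window, with 91.0% of aligned positions identical. The promoters of ZNF14 and ZNF101, at the edge of the window nearest the short-arm end, resembled the rest least, with median identities of 52.1% and 52.7%. ZNF91, with more reads in the slow-cycling libraries, was 83.1% identical to ZNF714 and 77.2% identical to ZNF100, both with fewer. ZNF431 and ZNF714, the most similar pair, both had fewer. A relation between promoter identity and the log2 ratios was not tested.

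CCAAT or its complement ATTGG occurred in all 13 matched promoters of the window, against 75 of 172 promoters (43.6%) of the members elsewhere and 34.6% of all 35116 RefSeq promoters of that length. It also occurred in 16 of 17 promoters (94.1%) of the window's genes that did not pass the filter on reads. The 5 promoters of the window from 0 to 5 Mb all held it too. Between 5 and 10 Mb 2 of 13 did, and between 10 and 15 Mb 13 of 17. In the windows that begin at 33, 42, 48 and 55 Mb it occurred in 8 of 35, 7 of 23, 9 of 28 and 31 of 50. GGGCGG, the letters of the Sp1 site, occurred in 8 of the 13 promoters of the window (61.5%) and in 62.2% of those elsewhere, against 45.0% of all promoters. TGANTCA, the AP-1 letters, occurred in 0 of the 13, in 6.40% of the promoters elsewhere and in 7.71% of all. The window's promoters had a median of 11 CpG dinucleotides, against 22 for the members elsewhere and 14 for all promoters. TTTGGCGC, one form of the E2F letters, occurred in 4 of the 17 promoters of window genes under the filter and in 1 of the 13 of members (ZNF708), against 0.652% of all promoters. Other searched letters were TTTCCCGC (E2F) and GCCATNTT (YY1), each in 1 of the 13. All motifs were searched on both strands. These counts describe letters in 1 window of sequence per start site and show no binding.

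Summed read counts were 15508179 to 16976909 per library, and a gene with 0 reads may have a level of up to 3 reads, which is 0.177 to 0.193 CPM. Libraries are named by their titles, and in every sample the treatment field names another sort. That field gives the library titled Bulk as Claret, Claret as eGFP, eGFP as Violet and Violet as Bulk. MKI67, a marker of proliferation, had 689 to 995 reads in the slow-cycling libraries, against 6778 in Bulk. By the treatment field, the library with 6778 reads would be a slow-cycling one. VIM, CD44, AXL and CAV1, expressed by this mesenchymal-like line, had at least 3742 reads each in every library. ESR1 and PGR had at most 7 reads, ERBB2 had 1415 to 1542, CDH1 at most 3 and EPCAM 28 to 61. Among markers of other cells, PTPRC had at most 2 reads, ALB at most 6 and INS 0, while PECAM1 had 54 to 87.

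Over all 167 members, reads were near balance between Bulk and the slow-cycling libraries. The members' median log2 ratios of Claret, eGFP and Violet to Bulk were 0.01, 0.06 and 0.09, beside -0.01, -0.01 and 0.01 over all genes kept. In Claret 28 members were at least 1.5-fold lower than Bulk (16.8%, against 17.4% of all genes kept) and 30 at least 1.5-fold higher (18.0%, against 21.4%). In eGFP 27 were lower (16.2%, against 18.6%) and 32 higher (19.2%, against 22.0%), and in Violet 23 were lower (13.8%, against 17.2%) and 37 higher (22.2%, against 22.4%). At least 2-fold lower were 12 (Claret), 16 (eGFP) and 12 (Violet) members, beside 6.72%, 7.64% and 6.92% of all genes kept, and at least 2-fold higher 11, 15 and 11 (11.3%, 12.0% and 11.7% of all genes kept). The exact binomial test on reads, which compares 2 libraries and not conditions, gave an adjusted p under 0.05 to 40 lower and 44 higher members in Claret, 39 and 54 in eGFP and 36 and 50 in Violet, where 68.8%, 69.9% and 69.5% of all genes kept passed it. As a family the zinc-finger genes therefore passed a fold of 1.5 about as often as genes in general, and the 3 comparisons share the same Bulk library.

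Levels were low. The median over members of the mean deposited FPKM (a level per length, averaged over the 4 libraries) was 1.43, beside 5.23 over all genes kept, and it was 0.955 in the window from 19 to 25 Mb. ZNF146, a protein made almost entirely of fingers, had the highest level, with an FPKM of 19.3 in Bulk against 20.2 (Claret), 21.8 (eGFP) and 20.9 (Violet). ZNF581 followed with 7.82, 23.2, 26.4 and 20.02, and ZNF787 with 11.6, 11.5, 11.7 and 10.9. Of these 3, ZNF581 alone differed from Bulk by more than 1.5-fold.

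The window from 19 to 25 Mb, chosen for its low values, lay below the chromosome's other zinc-finger genes. Bulk held 124 CPM of its 14 members together, while Claret held 70.5, eGFP 71.8 and Violet 77.4. The 153 members elsewhere held 1729 CPM in Bulk and 1879, 1945 and 1949 in the same order. The window's median log2 ratios of Claret, eGFP and Violet to Bulk were -1.01, -0.92 and -0.60, against 0.04, 0.08 and 0.13 elsewhere. With no filter, over the window's 23 genes with any reads, its medians were -0.62, -0.37 and -0.59. On log2(FPKM + 1), over the 14 members, they were -0.51, -0.48 and -0.38. At least 1.5-fold lower were 10 of the 14 in Claret (71.4%), 9 in eGFP (64.3%) and 7 in Violet, against 11.8%, 11.8% and 10.5% of the members elsewhere. With the groups taken from the treatment field, the library titled Bulk would be Claret and the library titled Violet would be Bulk. The window's median in Claret would then be 0.60, which is the titled Violet median of -0.60 with its sign turned. In these cell populations, fewer cells with a transcript and less of it per cell cannot be told apart.

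**Figure D1:**
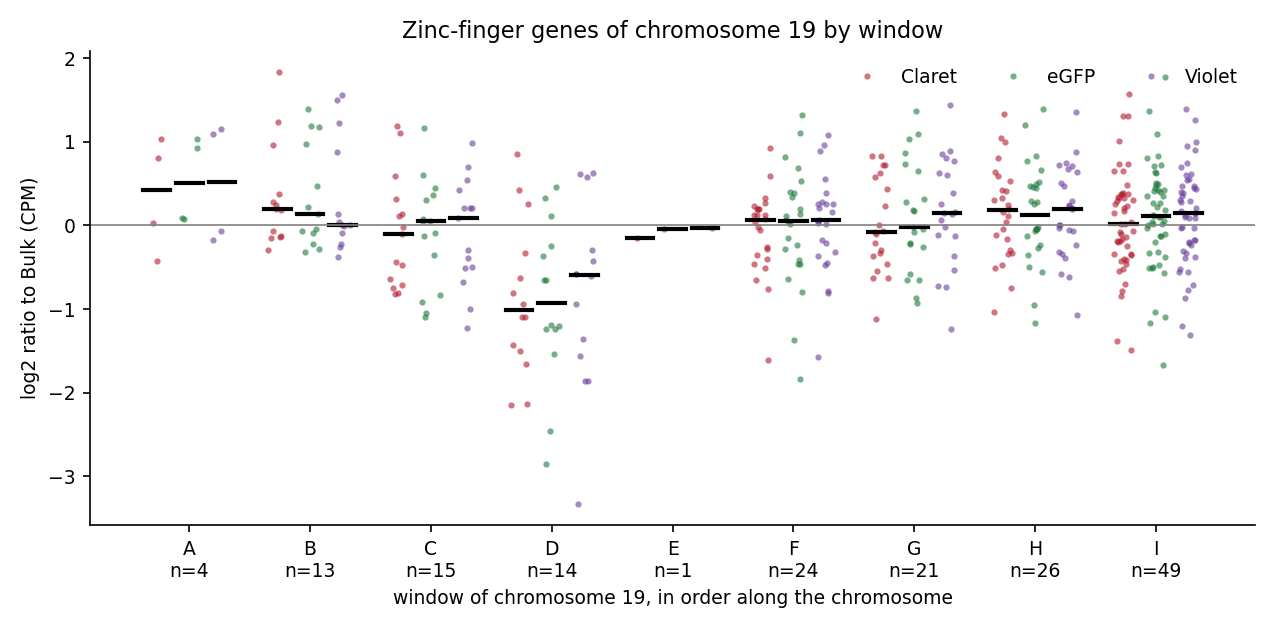
Log2 ratio to Bulk (y axis) of each of the 167 members in Claret, eGFP and Violet, by window along chromosome 19 (x axis; A, 0 to 5 Mb; B, 5 to 10; C, 10 to 15; D, 19 to 25; E, 25 to 33; F, 33 to 42; G, 42 to 48; H, 48 to 55; I, 55 to 59). Points are genes, black bars are medians; the bars of D lie between -1.01 and -0.60, and those of the other windows between -0.15 and 0.52.

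Across the other windows the medians stayed between -0.15 and 0.52. The highest belonged to the 4 members from 0 to 5 Mb, with 0.42 (Claret), 0.51 (eGFP) and 0.52 (Violet). From 5 to 10 Mb (13 members) they were 0.20, 0.14 and 0.01, and from 10 to 15 Mb (15 members) -0.11, 0.06 and 0.09. The long-arm clusters had 0.06, 0.05 and 0.06 from 33 to 42 Mb (24 members) and -0.08, -0.01 and 0.15 from 42 to 48 Mb (21 members). From 48 to 55 Mb (26 members) the medians were 0.18, 0.12 and 0.20, and from 55 to 59 Mb (49 members) 0.02, 0.11 and 0.14. No protein-coding gene of this name starts between 15 and 19 Mb, and ZNF507 was the only one to pass the filter between 25 and 33 Mb.

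Within the window from 19 to 25 Mb, 11 of the 14 members had lower values than Bulk in all 3 slow-cycling libraries and 3 had higher values in all 3. Of the 14585 genes kept, 6246 were below Bulk in all 3 and 6210 above it in all 3. The 3 comparisons share the same Bulk library. In all 3 libraries 6 members were at least 1.5-fold lower (13.0% of all genes kept were) and 5 were at least 2-fold lower (4.93% of all genes kept). Those 5 were ZNF101, ZNF714, ZNF100, ZNF675 and ZNF724, which are spread over the window and lie on both strands.

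ZNF714 (ENSG00000160352, chromosome 19, 21082159 to 21125270) had the most reads of the 5: Bulk held 346, Claret 137, eGFP 147 and Violet 134. The slow-cycling libraries lay within 13 reads of each other and all well below Bulk. Its log2 ratios were -1.43 (95% interval -1.74 to -1.16), -1.24 (-1.54 to -0.97) and -1.35 (-1.67 to -1.08); these intervals cover counting error only.

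ZNF100 (ENSG00000197020, chromosome 19, 21722766 to 21767628) was covered by 107 reads in Bulk, against 35 in Claret, 18 in eGFP and 28 in Violet. It was lowest in eGFP: its ratios on the log2 scale were -1.66 (-2.31 to -1.16), -2.46 (-3.39 to -1.86) and -1.86 (-2.59 to -1.32). ZNF675 (ENSG00000197372, chromosome 19, 23525631 to 23687220), described in the literature as TIZ, a protein that binds TRAF6, went from 129 reads in Bulk to 30 (Claret), 54 (eGFP) and 34 (Violet). Here eGFP was the highest of the slow-cycling libraries, and the log2 ratios were -2.14 (-2.84 to -1.63), -1.24 (-1.76 to -0.80) and -1.86 (-2.51 to -1.37).

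ZNF101 (ENSG00000181896, chromosome 19, 19668796 to 19683509) was read 216 times in Bulk, with 108 (Claret), 94 (eGFP) and 72 (Violet) reads in the slow-cycling libraries (log2 ratios -1.09, -1.20 and -1.56). ZNF724 (ENSG00000196081, chromosome 19, 23221599 to 23250390) held 48 reads in Bulk but 10 (Claret), 5 (eGFP) and 3 (Violet) in the slow-cycling libraries. It was the one member at or above 1 CPM in Bulk only, and 61.1% of its 31-mers also occur in other genes, so its count is uncertain. Its log2 ratios of -2.15 (-3.52 to -1.37), -2.85 (-4.96 to -1.95) and -3.33 (-6.33 to -2.37) were the lowest of the window, with wide intervals.

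The next 4 genes were lower in all 3 libraries but not 2-fold lower in each. Reads of ZNF738 numbered 119 in Bulk but 59, 40 and 61 in the slow-cycling libraries (log2 ratios -1.09, -1.54 and -0.94), and those of ZNF708 133 and 74, 57 and 88 (-0.93, -1.21 and -0.58). Bulk held 358 reads of ZNF431, the most of any gene of the window, and Claret, eGFP and Violet 219, 229 and 239 (-0.81, -0.65 and -0.58), and 147 of ZNF430, against 102, 94 and 109 (-0.62, -0.65 and -0.42). For these 4 genes the intervals lay below 0 in each library.
ZNF43 was sparsely read, with 30 in Bulk against 10, 23 and 19 in Claret, eGFP and Violet, and its interval lay below 0 in Claret (-2.89 to -0.62) but included 0 in eGFP (-1.25 to 0.44) and Violet (-1.57 to 0.22). ZNF254, at the centromere side of the window, stood at 176 reads in Bulk against 150, 149 and 143. Its interval lay below 0 in Claret (-0.66 to -0.02) and included 0 in eGFP and Violet. Its log2 ratios of -0.33, -0.25 and -0.29 were the smallest differences among the 11 lower genes in Claret, eGFP and Violet. ZNF254 overlaps 2 other genes with reads, so part of its count may belong to them.

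The 3 genes with higher values sat among the lower ones. ZNF91 (ENSG00000167232, chromosome 19, 23304991 to 23395560), the primate repressor of SVA retrotransposons, lies between ZNF724 and ZNF675. Bulk held 94 of its reads, Claret 137, eGFP 131 and Violet 145, which gave log2 ratios of 0.43 (0.05 to 0.83), 0.46 (0.07 to 0.86) and 0.62 (0.24 to 1.02). For ZNF493, Bulk held 51 reads, Claret 66, eGFP 65 and Violet 80, and the log2 ratios were 0.26 (-0.29 to 0.82), 0.33 (-0.21 to 0.90) and 0.63 (0.13 to 1.19). ZNF14 had 30, 60, 33 and 46 reads, with 0.85 (0.24 to 1.58), 0.12 (-0.63 to 0.89) and 0.59 (-0.08 to 1.33). ZNF91 was thus the only one of these 3 whose interval lay above 0 in every slow-cycling library.

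**Figure D2:**
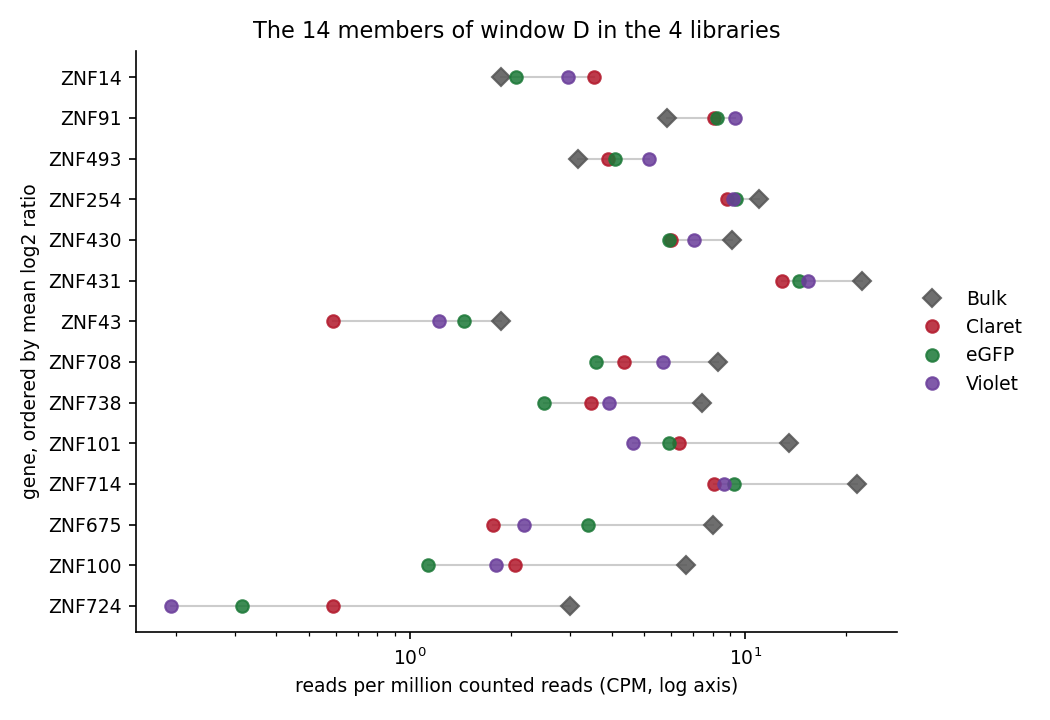
CPM on a log axis (x axis) of the 14 members from 19 to 25 Mb, called window D, in the 4 libraries (1 point per library; grey diamonds are Bulk). Bulk is the highest point for 11 genes and the lowest for ZNF14, ZNF91 and ZNF493.

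Many genes of the window had few or no reads. Of its 37 protein-coding ZNF genes 14 passed the filter (37.8%), against 153 of 212 elsewhere (72.2%). Of the 23 that did not, 14 had 0 reads in all 4 libraries, and the highest count in any library was 18 (ZNF726 in Bulk, where Claret, eGFP and Violet held 5, 10 and 5). ZNF93, a repressor of LINE-1 elements, was hit by 1 read each in Bulk and eGFP and by 0 in Claret and Violet. The member nearest above the filter was ZNF724 (mean 1.02 CPM), and the nearest below were ZNF836 (0.780 CPM) and ZNF506 (0.752 CPM). Elsewhere 25 of the 59 genes under the filter had 0 reads in all libraries. Among further repressors outside the window, ZNF382 had 4, 13, 12 and 16 reads in Bulk, Claret, eGFP and Violet, and ZNF331 had 0 in each.

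Outside the window, 3 members were at least 2-fold lower in all 3 slow-cycling libraries and 6 were at least 2-fold higher, against 4.93% and 8.67% of all genes kept. ZNF850 (ENSG00000267041, chromosome 19, 36714383 to 36772825) kept 118 (Claret), 94 (eGFP) and 112 (Violet) reads against 338 in Bulk, and its log2 ratios were -1.61 (-1.94 to -1.32), -1.84 (-2.20 to -1.53) and -1.58 (-1.91 to -1.28). It overlaps 1 other gene with reads, and the median of its own cluster was near 0. ZNF530 had 107, 43, 47 and 42 reads (-1.38, -1.17 and -1.31). ZNF888 had 114, 59, 50 and 53 (-1.03, -1.17 and -1.08), and 34.5% of its 31-mers occur in other genes.

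The lowest genes of the remaining windows lay at unequal distances from Bulk. ZNF551, from 55 to 59 Mb, stood at 175 reads in Bulk against 66, 54 and 95 in the same order (-1.49, -1.67 and -0.87). ZNF180, from 42 to 48 Mb, had 175, 86, 92 and 73 (-1.11, -0.93 and -1.24), and ZNF441, from 10 to 15 Mb, had 115, 70, 55 and 48 (-0.81, -1.05 and -1.23). The lowest members from 0 to 5 Mb and from 5 to 10 Mb were close to Bulk: ZNF77 had log2 ratios of -0.43, 0.08 and -0.07, and ZNF317 had -0.29, -0.28 and -0.38. ZNF507, alone in its window, differed little, with 622 reads in Bulk against 606, 608 and 608.

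Among the higher genes, ZNF558 (ENSG00000167785, chromosome 19, 8806170 to 8832328), known as a repressor of the mitochondrial quality-control gene SPATA18, was highest in Claret. Its 60 reads in Bulk compare with 236 (Claret), 163 (eGFP) and 181 (Violet), or log2 ratios of 1.83 (1.45 to 2.30), 1.40 (0.99 to 1.88) and 1.56 (1.17 to 2.04). ZNF581 (ENSG00000171425, chromosome 19, 55635459 to 55645622) had 211, 683, 733 and 558 reads, with 1.58 (1.36 to 1.82), 1.77 (1.56 to 2.01) and 1.40 (1.17 to 1.64). It overlaps 2 other genes with reads, and 20.5% of its 31-mers occur in other genes. ZNF83 (ENSG00000167766, chromosome 19, 52594060 to 52690496) had 317, 866, 742 and 814 reads, with 1.34 (1.15 to 1.53), 1.21 (1.02 to 1.41) and 1.36 (1.17 to 1.55). ZNF83 overlaps 1 other gene with reads. In each of the 3 genes every slow-cycling library lay far above Bulk.

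The other genes at least 2-fold higher in all 3 libraries had few reads. Against 13 reads in Bulk, ZNF606 had 38 (Claret), 37 (eGFP) and 34 (Violet). ZNF846 had 15 in Bulk against 41, 37 and 46, and ZNF497 17 against 39, 39 and 36. Of ZNF497, 43.1% of the 31-mers occur in other genes, and ZNF606 overlaps 1 other gene with reads. The highest genes of the remaining windows included ZNF555 (76 reads in Bulk against 170, 148 and 171) and ZNF333 (151 against 375, 345 and 301). The others were ZNF585A (89 against 185, 228 and 167) and ZNF221 (8 against 17, 24 and 25). ZNF585A overlaps 1 other gene with reads, and 22.8% of its 31-mers occur in other genes.

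Of the members picked for a known role, ZNF91 is described above, and the others follow. ZNF350, or ZBRK1, a repressor that binds BRCA1, went from 38 reads in Bulk to 87 (Claret), 70 (eGFP) and 62 (Violet), with ratios on the log2 scale of 1.05 (0.52 to 1.68), 0.84 (0.28 to 1.48) and 0.68 (0.10 to 1.33). ZNF274, which binds the ends of zinc-finger genes themselves and brings SETDB1 to them, had 539, 695, 720 and 728 reads, with 0.26 (0.09 to 0.42), 0.40 (0.24 to 0.57) and 0.43 (0.27 to 0.60). ZNF224, a repressor known as a partner of WT1, had 178, 318, 284 and 305 reads, with 0.72, 0.66 and 0.77, and 42.5% of its 31-mers occur in other genes. ZNF146 differed from Bulk by 0.08, 0.20 and 0.16, and it overlaps 1 other gene with reads.

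The window's transcripts were poor in G and C. Median GC content of the longest annotated transcript was 37.3% in the window, from 34.1% for ZNF254 to 45.0% for ZNF101, and 38.9% to 47.2% in the other windows. Across the 167 members the log2 ratio had a Spearman correlation with GC content of 0.14 (Claret), 0.13 (eGFP) and 0.11 (Violet), as a description over genes that share 4 libraries. Members under 40% GC outside the window (29 genes) had medians of -0.05, 0.02 and 0.01. The 12 members of the window under 40% had -1.01, -0.93 and -0.60. After the trend of all genes with GC content was subtracted, the 29 had 0.04, 0.11 and 0.06, and the 12 had -0.93, -0.83 and -0.55. The window was chosen for its low ratios, so these values are a description. GC content as a cause was not tested. Correlations with transcript sharing were 0.09, 0.08 and 0.13, and with gene length 0.09, 0.07 and 0.04.

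**Figure D3:**
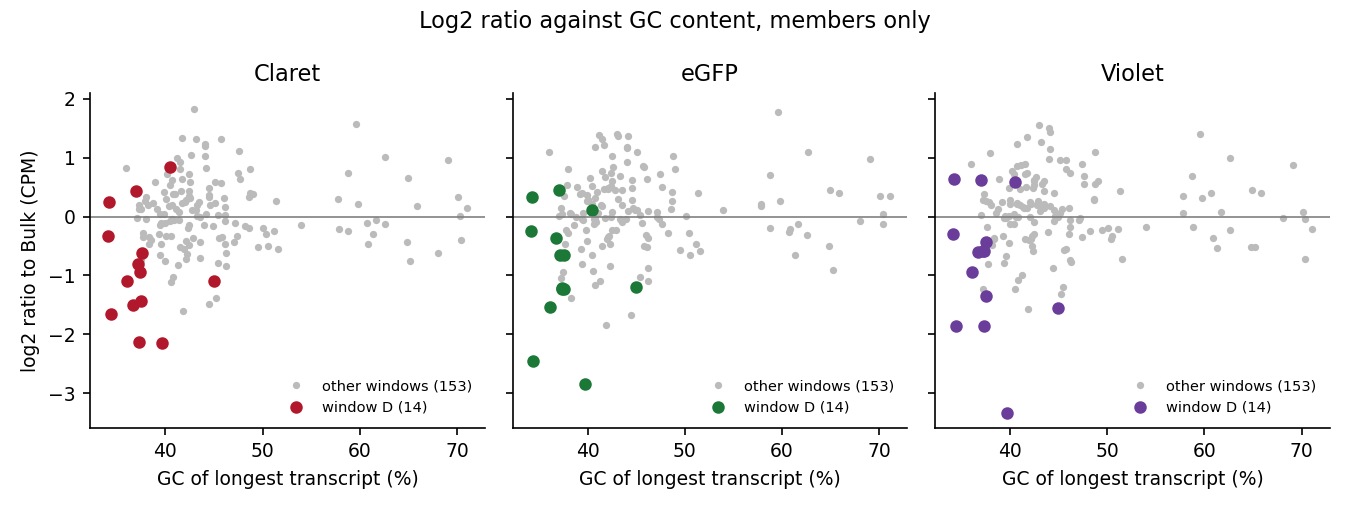
Log2 ratio to Bulk (y axis) against GC content of the longest transcript in percent (x axis) for the 167 members, 1 panel per slow-cycling library; coloured points are the 14 genes from 19 to 25 Mb. At GC contents under 40% the coloured points have medians of -1.01, -0.93 and -0.60, and the grey points of other windows -0.05, 0.02 and 0.01.

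Other genes that start in the same stretch gave mixed values. The 18 other protein-coding genes that start between 19 and 25 Mb had median log2 ratios of 0.13, 0.08 and 0.05 in Claret, eGFP and Violet, with single values from -1.56 to 2.19. All of them start before 20 Mb, so they border the cluster and do not lie within it. The 12 zinc-finger members that start after 20 Mb had medians of -1.01, -0.93 and -0.60. The 6 non-coding genes and pseudogenes with reads in the window had -0.13, -0.80 and -0.19. Of the 6, 1 was at least 1.5-fold lower in Claret, 4 in eGFP and 2 in Violet. Of all genes kept, 17.4%, 18.6% and 17.2% were. Within the cluster, the processed pseudogene IPO5P1 (ENSG00000269837) had -0.64, -0.90 and -0.78, and AC092279.1, a non-coding gene that lies within ZNF254, had -0.45, -1.09 and -0.81. A second IPO5P1 entry (ENSG00000284428), with 33 reads in Bulk and 15 in eGFP, had -0.32, -1.05 and -0.22. AC092279.2, with 19 reads in Bulk and 11 in eGFP, had 0.09, -0.70 and 0.19, and its intervals included 0. RPSAP58, a processed pseudogene with the most reads of the 6 (526 in Bulk), had 0.06, 0.02 and -0.16. LINC00663, which starts before 20 Mb, had 1.99, 1.66 and 1.86. These genes were named after their values were seen.

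Zinc-finger genes elsewhere in the genome had medians slightly below 0. The 218 protein-coding ZNF genes of other chromosomes had medians of -0.15, -0.12 and -0.07. In Claret 18.3% were at least 1.5-fold lower and 10.1% higher, against 17.4% and 21.4% of all genes kept. In eGFP these were 21.1% and 8.26% (against 18.6% and 22.0%), and in Violet 14.7% and 9.17% (against 17.2% and 22.4%). The 707 other protein-coding genes of chromosome 19 had medians of 0.07, 0.06 and 0.03. Of 14 zinc-finger genes of the chromosome with other names (ZFP, ZIM, ZIK, PEG, ZSCAN and MZF genes), 7 passed the filter and 7 had 0 reads in all libraries. ZFP28 was higher in the slow-cycling libraries, with 320 (Claret), 301 (eGFP) and 267 (Violet) reads against 168 in Bulk, while ZFP30 was lower, with 106, 99 and 108 against 178. No test of these differences between sets was made.

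Comparing the slow-cycling libraries with each other uses no Bulk reads. The median log2 ratio over the 167 members was -0.03 (Claret over eGFP), -0.06 (Claret over Violet) and -0.02 (eGFP over Violet). At least 1.5-fold lower and higher were 6 and 6 members for Claret against eGFP (3.59% each, against 2.55% and 2.65% of all genes kept). For Claret against Violet 11 members were lower and 3 higher (6.59% and 1.80%, against 3.22% and 1.81%), and for eGFP against Violet 7 and 3 (4.19% and 1.80%, against 3.78% and 2.01%). The members of the window from 19 to 25 Mb had medians of 0.00, -0.17 and -0.12. Of the 14, 7 were lower in Claret than in eGFP, 10 in Claret than in Violet and 8 in eGFP than in Violet. Over all genes kept these counts were 7213, 7238 and 7313 of 14585.

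By the exact binomial test on reads, adjusted over all 14585 genes kept, 9 members were lower and 2 higher in Claret than in eGFP, 6 and 2 in Claret than in Violet, and 5 and 7 in eGFP than in Violet (12.6%, 17.4% and 17.2% of all genes kept had an adjusted p under 0.05). In the window, ZNF675 was the only member among them: its reads in Claret lay below eGFP by a log2 ratio of -0.90 (-1.64 to -0.27; exact binomial test, adjusted p = 0.0377). ZNF724 and ZNF43 had ranges over the slow-cycling libraries of 1.18 and 1.14 on the log2 scale, with at most 23 reads in any of them; no difference between their libraries passed the exact binomial test (lowest adjusted p = 0.0904).
The widest range of all members was that of ZNF17, a range of 1.31 with 33 (Claret), 59 (eGFP) and 79 (Violet) reads. ZNF490, with 28, 10 and 19 reads, had a range of 1.23, and 62.4% of its 31-mers occur in other genes.

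**Figure D4:**
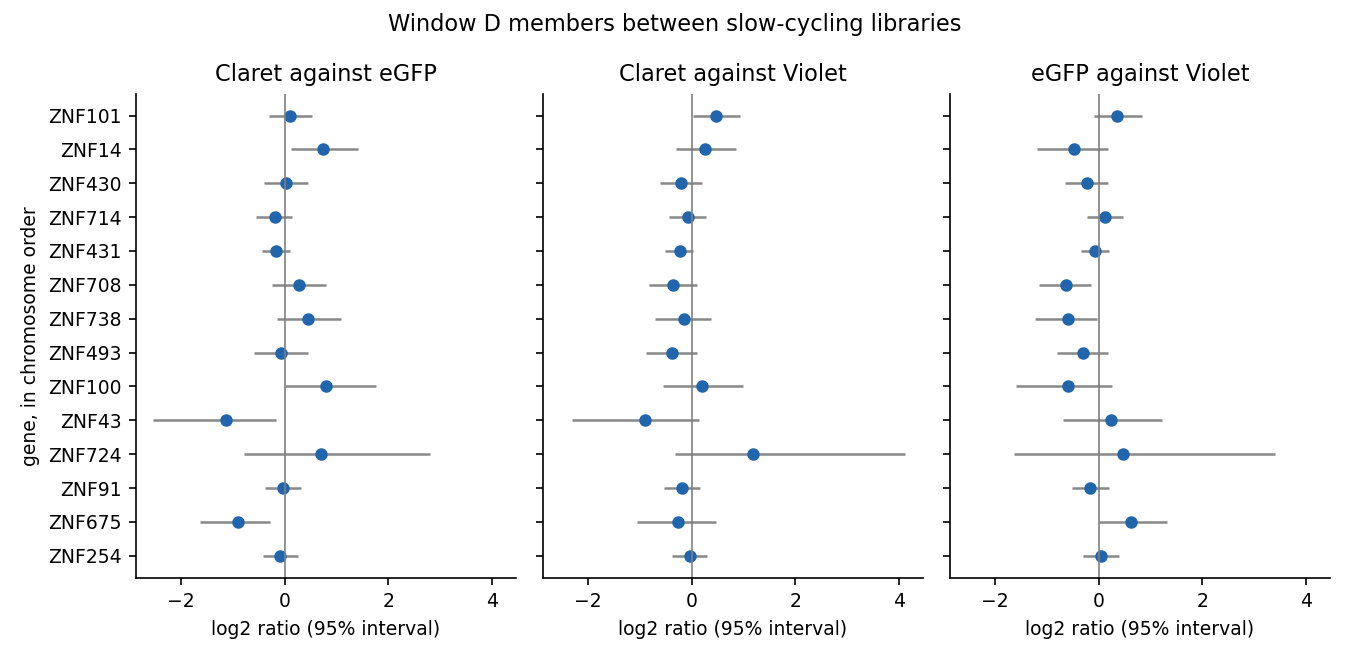
Log2 ratios between pairs of slow-cycling libraries (x axis, points, with 95% intervals for counting error as lines) for the 14 members from 19 to 25 Mb, in chromosome order (y axis). For Claret against eGFP the intervals of ZNF43 and ZNF675 lie below 0 and those of ZNF14 and ZNF100 above 0, and ZNF675 lies at -0.90. Most others cross 0.

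A list of corepressor and heterochromatin genes was lower in part. It was chosen with earlier results of these data known, so its counts are a description. Of its 24 genes, at least 1.5-fold lower were 10 (Claret), 12 (eGFP) and 11 (Violet), and 0 were higher. Of all genes kept, 17.4%, 18.6% and 17.2% were lower. The list medians were -0.51, -0.59 and -0.50. TRIM28, the corepressor that the KRAB domain binds, went from 10306 reads in Bulk to 5627 (Claret), 5248 (eGFP) and 4680 (Violet; log2 ratios -0.98, -0.99 and -1.14). SETDB1, which acts with TRIM28, had 452, 604, 585 and 552 reads and lay above Bulk (0.31, 0.36 and 0.29).

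Among the 24 genes, the largest mean difference was that of UHRF1, which recruits DNMT1 to newly replicated DNA. UHRF1 went from 4339 reads in Bulk to 619, 561 and 588 (-2.91, -2.96 and -2.88). DNMT1, the maintenance DNA methyltransferase, went from 8584 to 2502, 2169 and 2192 (-1.89, -1.996 and -1.97). CHAF1A and CHAF1B, subunits of chromatin assembly factor, lay between -2.58 and -2.05, and the histone methyltransferases SUV39H1 and SUV39H2 between -2.83 and -1.49. The heterochromatin proteins CBX1, CBX3 and CBX5 lay between -0.84 and -0.53. FAM208A, MPHOSPH8 and MORC2, which silence transposable elements together with SETDB1 in the HUSH pathway, lay between 0.05 and 0.28, while PPHLN1 of the same complex lay between -0.51 and -0.46. MKI67 was lower in the same libraries (6778 reads in Bulk, 689 to 995 elsewhere), and its part in their values was not tested.

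**Figure D5:**
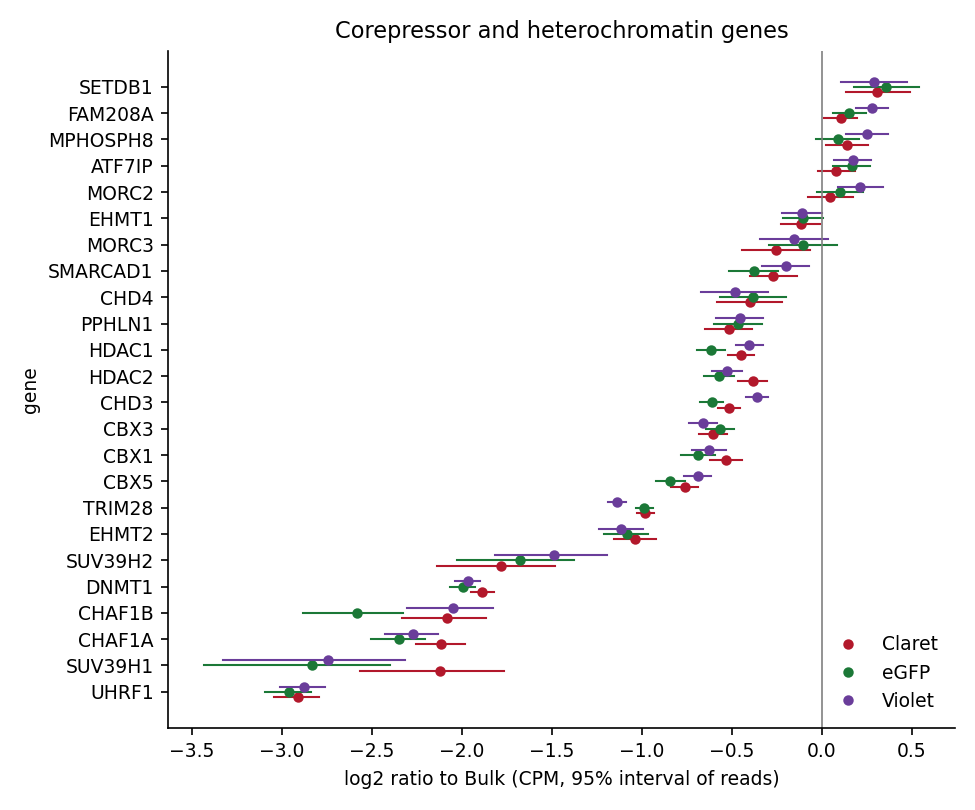
Log2 ratio to Bulk (x axis, points, with 95% intervals for counting error) of the 24 corepressor and heterochromatin genes in Claret, eGFP and Violet, ordered by their mean (y axis). UHRF1 lies between -2.96 and -2.88, TRIM28 between -1.14 and -0.98, and SETDB1 between 0.29 and 0.36.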

How the data were processed

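The deposited table of whole-number read counts, and the deposited FPKM table that the authors made per length and per library size, cover 4 libraries, 1 per group. HISAT2 2.0.5 and featureCounts 1.5.0-p3 are named in the submitters' processing notes; how strand and multiply matching reads were treated is not given in the sources used here. Coordinates are GRCh38, as deposited. Of the 167 members, 115 overlap another annotated gene (50 a gene with reads), and 40 share over 20% of their 31-mers with other genes (GENCODE 29).

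Genes with a mean of at least 1 CPM were kept, and libraries scaled by TMM (edgeR 4.0.16, R 4.3.3). Log2 ratios used a prior count of 2. Intervals are 95% exact (Clopper-Pearson) and cover counting error only. With 1 library per group edgeR's quasi-likelihood model could not be fitted, so reads of 2 libraries were compared by a two-sided exact binomial test with Benjamini-Hochberg adjustment. Scripts were tested on simulated data. Promoters (RefSeq) were aligned pairwise.

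Members, windows and lists were chosen with earlier results of these data known. Genes were named by rule: all members from 19 to 25 Mb, the extremes of each other window, those 2-fold from Bulk in all 3 libraries, the 3 with the widest range, the 3 with the highest FPKM and 8 with known roles. ZNF726, ZNF836, ZNF506 and ZNF865 and the genes of the lists were named after their values were seen. Alternatives were scaling by summed counts or DESeq2 1.42.0 size factors, other filters, prior counts and folds, log2(FPKM + 1), a GC correction, other groups, other bounds, and leaving out members that share sequence.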

Additional observations from a re-analysis of the deposited data

Results flagged for a closer look

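In 2 members the 95% interval of reads lay above 0 against Bulk in one slow-cycling library and below 0 in another. ZNF17 had log2 ratios of -0.70 in Claret (interval -1.41 to -0.08), 0.19 in eGFP and 0.61 in Violet (0.11 to 1.17). Directly between libraries, its Claret reads lay below its Violet reads by a log2 ratio of -1.31 (exact binomial test on reads, adjusted p = 5.89e-05). ZNF865 had log2 ratios of 0.15 in Claret, 0.35 in eGFP (0.20 to 0.51) and -0.21 in Violet (-0.39 to -0.04), and 0.56 for eGFP against Violet (exact binomial test on reads, adjusted p = 4.01e-10). Both tests compare libraries, each with 1 sample, so the difference between the conditions was not tested.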

How the results depend on the processing

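The window's medians and their differences from the other members kept their direction, and counts stayed within 1.5 times, under summed-count scaling, DESeq2 size factors, a prior count of 0.5, the GC correction, cluster bounds at gaps over 1 Mb (8 genes, where only medians apply), and without members that share over 20% of 31-mers or without ZNF724 (added after the data were seen). Without ZNF724 the window medians of Claret, eGFP and Violet were -0.93, -0.65 and -0.58, and their differences from the other members -0.97, -0.73 and -0.71. The median over all members is near 0 and its sign is not stable: in Claret it was 0.01, but -0.05 without members that share sequence and -0.00485 on log2(FPKM + 1). Groups from the treatment field gave -0.09 (Claret), -0.06 (eGFP) and -0.02 (Violet). No paired analysis was possible because each group holds 1 library.

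A filter at 5 CPM left 115 members and 7 in the window, of which 15 and 5 were at least 1.5-fold lower in Claret, 15 and 5 in eGFP and 11 and 2 in Violet. A fold of 2 left 12, 16 and 12 members lower. With no filter the window median was -0.62 in Claret and -0.37 in eGFP, its difference from the other members -0.66 and -0.44, and 12 window genes were lower in Violet. On log2(FPKM + 1) the window medians of Claret, eGFP and Violet were -0.51, -0.48 and -0.38, and its difference -0.52, -0.52 and -0.41; 12, 17 and 15 members, and 6 window genes in Claret, were lower. Groups from the treatment field compare the library titled Bulk, as Claret, with the library titled Violet, as Bulk. They turned the Claret window median to 0.60 and its difference to 0.73, with 3 window genes lower. The eGFP window median became -0.17 and its difference -0.12, with 11 members and 1 window gene lower. In Violet these were -0.12, -0.10, 7 and 3. Low counts limit most members: the median half-width of an interval against Bulk was 0.39 to 0.40.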
